A study of Gallus gallus with 18 samples.

Results

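The genes described here are 7 WNT ligands (WNT1, WNT3A, WNT4, WNT5A, WNT6, WNT11 and WNT16), the WNT response genes AXIN2 and LEF1, and SFRP1, a secreted WNT inhibitor. They were chosen by symbol, with earlier results of these data known. Each of the 10 symbols matched a single row of the 30108 genes in the count table. All 10 passed the filter on low counts, which kept 17724 genes. The samples were trigeminal ganglia of wildtype chick embryos, with no treatment named in the labels, at 3 stages of the Hamburger-Hamilton (HH) series: HH13-14, HH15-16 and HH17-18. Each stage had 3 pools of ganglia, given as biological replicates, and each pool was sequenced as 2 technical replicates on lanes 7 and 8 from poly(A)-enriched RNA. The number of embryos in a pool is not given in the sources used here. With both lanes of a pool added up, n was 3 pools per stage, and the pools held 53458986 to 68083147 counts. Levels are given in CPM, the read count normalised to the total of its pool, with totals adjusted by edgeR's TMM scaling. They do not correct for gene length, so levels are compared between pools and not between genes.

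WNT proteins are secreted, lipid-modified ligands that bind Frizzled receptors with LRP co-receptors or with receptor tyrosine kinases such as ROR. In the branch that runs through β-catenin, ligand binding disables the complex that degrades β-catenin, which then acts with TCF and LEF factors on target genes. In vertebrate embryos WNT1 and WNT3A are known from the dorsal neural tube, from which the neural crest leaves, and WNT6 from the ectoderm. Neural crest and ectodermal placodes together form the trigeminal ganglion, and WNT signals are known to act on both of these sources.

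The tissue held transcripts of neurons and neural crest, and of neighbouring tissues. TUBB3, a neuronal tubulin, ran from 688 to 1182 CPM and SOX10, a neural crest factor, from 69.6 to 237 CPM over the 9 pools. Summed over the 12 of 14 listed neural tube genes found, the level ran from 494 to 608 CPM at HH13-14, from 409 to 762 at HH15-16 and from 317 to 724 at HH17-18. Summed over 9 of 10 head mesenchyme genes, it ran from 2445 to 2589, from 1589 to 3319 and from 2570 to 4227 CPM. Replicate 1 of HH15-16 had the most neural tube and the least head mesenchyme transcript of all pools, and replicate 2 of HH17-18 the least neural tube and the most head mesenchyme transcript. Replicate 1 of HH15-16 was also the lowest pool for summed neural crest (285 CPM) and trigeminal placode genes (261 CPM). The same held for sensory neuron (873 CPM) and endothelium genes (240 CPM). In such bulk samples, fewer cells of a type and less RNA per cell cannot be told apart.

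The members lie on different chromosomes for the most part. In the RefSeq gene table of build GRCg7b, the build named in the submitters' processing notes, WNT1 is on chromosome 34 (17120 to 22528), WNT3A on chromosome 2 (2481342 to 2572222) and WNT4 on chromosome 21 (6295870 to 6309892). WNT5A is on chromosome 12 (8082567 to 8096301) and WNT6 on chromosome 7 (22026370 to 22035132). WNT11 (193749407 to 193811820) and WNT16 (23406831 to 23419292) share chromosome 1. AXIN2 is on chromosome 18 (8247456 to 8268698), LEF1 on chromosome 4 (37449291 to 37503977) and SFRP1 on chromosome 22 (2736789 to 2747690). Annotated long noncoding RNAs overlap WNT5A and AXIN2, and the gene ZMAT4 overlaps the edge of SFRP1. How reads of such overlaps were counted is not known. The strand setting and annotation release of the counting are not given in the sources used here. The count table has Ensembl identifiers, so these RefSeq overlaps may not be those of the annotation counted.

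Between HH13-14 and HH17-18, 1 of the 10 members rose (WNT6) and 1 fell (WNT16) at an edgeR adjusted p under 0.05, where 2.40% of all genes tested were higher and 2.12% lower. The median log2 fold change of the 10 was -0.15, against 0.02 over all genes tested. In 5 members the pools of these stages did not overlap: WNT5A and WNT6 were higher in every pool of HH17-18, and WNT4, WNT16 and LEF1 lower. Such separation was common, with 16.0% of all genes tested higher in every pool and 15.4% lower. In the later step, from HH15-16 to HH17-18, WNT16 was the single member called, as lower, where 0.0790% of genes were called in all, 0.0169% as higher and 0.0621% as lower. From HH13-14 to HH15-16, the earlier step, edgeR made no call among the members or among all genes (0 of 17724, 0%). At an unadjusted edgeR p under 0.05 the counts of the earlier step were 0 members and 1796 genes, and DESeq2 called 0 members and 104 genes. In the later step 4 members and 1651 genes had such a p, and DESeq2 called 1 member and 349 genes. Over the interval 5 members and 3829 genes had such a p, and DESeq2 called 4 members and 1805 genes. WNT16 was also the single member with an effect of stage over all 3 stages, a call made for 1.30% of genes.

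**Figure D1:**
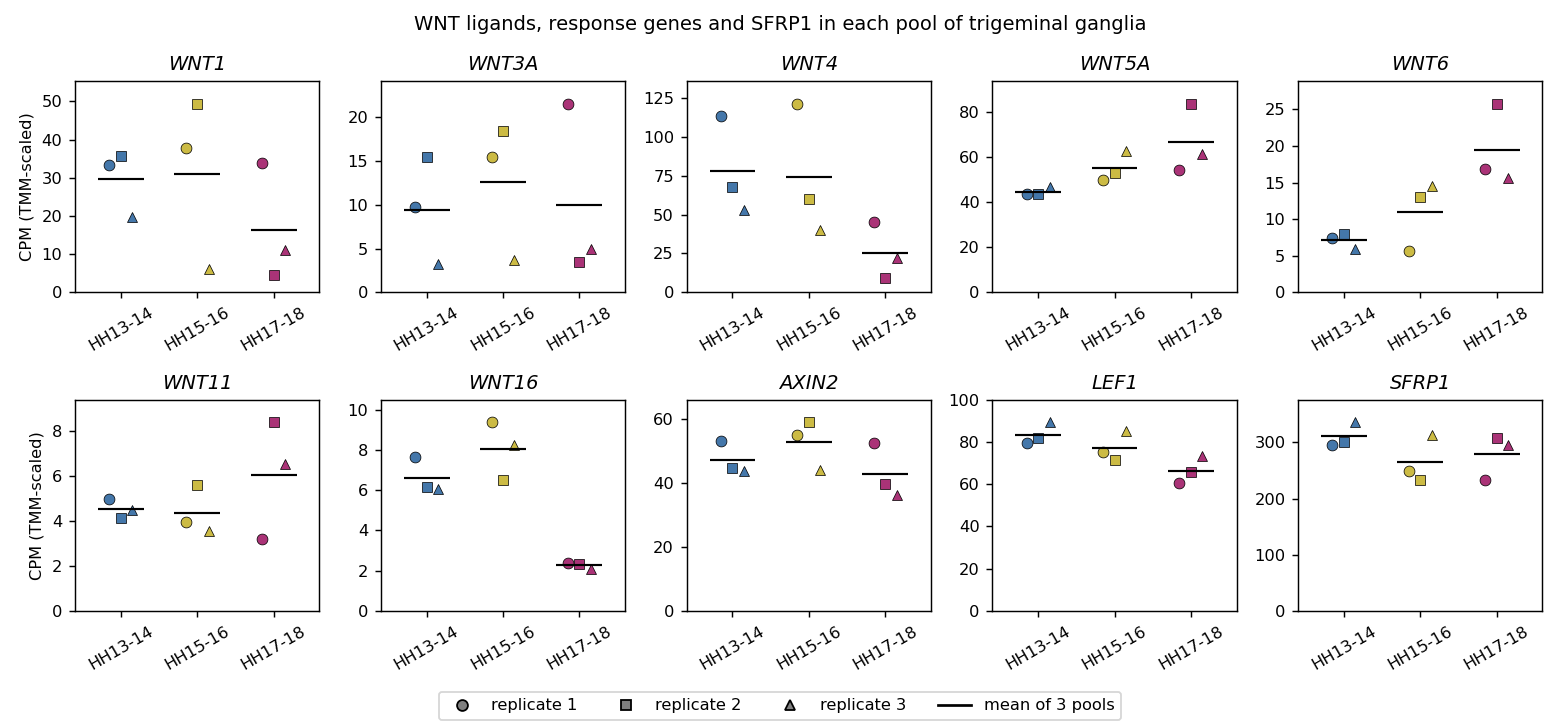
Level of each of the 10 genes in each pool, as TMM-scaled CPM on axes that start at 0, by stage, with a symbol for each replicate number and a line at the mean of 3 pools. The 3 pools of HH17-18 lie at 2.08 to 2.39 CPM for WNT16, below all earlier pools, while WNT1, WNT3A and WNT4 are spread widely within stages.

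WNT16 (ENSGALG00010001305) fell at the last stage. WNT16 is a ligand studied in bone and, in zebrafish, in the specification of blood stem cells. Its level was 7.65, 6.13 and 6.08 CPM in the pools of HH13-14, 9.37, 6.48 and 8.22 CPM at HH15-16, and 2.39, 2.32 and 2.08 CPM at HH17-18. The HH17-18 pools lay below all 6 others, while the earlier stages overlapped. These levels rest on 124 to 156 counts per pool at HH17-18 and on 328 to 550 at the earlier stages. The mean went from 8.02 ± 1.46 CPM at HH15-16 to 2.26 ± 0.162 at HH17-18 (SD, n = 3), which edgeR fitted as -1.82 on the log2 scale (SE 0.20, adjusted p 0.0123). Against HH13-14, at 6.62 ± 0.895 CPM, edgeR gave a log2 change of -1.55 (SE 0.19, adjusted p 0.00514).

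In the earlier step the log2 change of WNT16 was 0.28 (SE 0.19, adjusted p 0.645 by edgeR). The later step differed from it by -2.10 (log2, SE 0.32), with an unadjusted edgeR p of 4.79e-05 and an adjusted p of 0.424, so that the difference between steps did not pass, where 0.00564% of genes did. DESeq2 gave -2.10 with an adjusted p of 1.78e-06 for the same difference. The call over the interval held whichever pool was left out, at adjusted p-values of 0.0023 to 0.0312. The call of the later step was lost without replicate 3 of HH17-18 (adjusted p 0.0625), on lane 7 alone (0.0512) and when these 2 stages were fitted alone (0.116), while its log2 fold change ran from -1.96 to -1.70 over all alternatives.

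WNT6 (ENSGALG00010021142) rose over the interval. Its level was 7.40, 8.04 and 5.92 CPM at HH13-14, 5.64, 13.02 and 14.5 CPM at HH15-16, and 16.8, 25.8 and 15.6 CPM at HH17-18. Every pool of HH17-18 exceeded every earlier one, while the pools of HH15-16 lay on either side of those of HH13-14, replicate 1 being the lowest of the 9. The mean went from 7.12 ± 1.09 to 19.4 ± 5.55 CPM (SD, n = 3), with a fitted log2 change of 1.45 (SE 0.32, edgeR adjusted p 0.0355). Its earlier step was 0.63 (SE 0.32) and its later step 0.81 (SE 0.32), at edgeR adjusted p-values of 0.529 and 0.46. The call was lost each time a pool of HH13-14 or HH17-18 was left out, with adjusted p-values of 0.052 to 0.137 and log2 fold changes of 1.19 to 1.56, and on lane 7 alone (0.064). Over all genes the higher calls, 425 in the main fit, also fell in these fits. Without replicates 1, 2 and 3 of HH13-14 in turn they were 27, 45 and 37. Without those of HH17-18 they were 358, 133 and 72, and on lane 7 alone 308. Without replicate 1 of HH15-16 the adjusted p of WNT6 was 0.00471, with 786 higher calls over all genes.

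WNT10A (ENSGALG00010021151), a ligand known for its part in teeth, hair and other ectodermal appendages in humans and mice, lies next to WNT6 in the RefSeq table, with 5480 bases between them. It is outside the 10 members and was followed as one of the other WNT ligands. Its counts were 15, 8 and 15 per pool at HH13-14, 25, 52 and 50 at HH15-16, and 92, 109 and 80 at HH17-18. The mean level was 0.215 ± 0.0593, 0.664 ± 0.208 and 1.58 ± 0.358 CPM at the successive stages (SD, n = 3). Over the interval WNT10A rose by 2.86 on the log2 scale (SE 0.38, adjusted p 0.00588 by edgeR). It passed the filter on low counts through the pools of the later stages, where it was higher. With at least 10 counts asked in every pool it was not tested, as replicate 2 of HH13-14 had 8. Both neighbours were called higher over the interval, and a link between these calls was not tested.

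Surface ectoderm markers were read beside WNT6. TP63, a factor of stratified epithelia, was at 7.53, 8.13 and 8.40 CPM at HH13-14, at 6.44, 13.6 and 16.8 CPM at HH15-16, and at 15.5, 22.6 and 16.7 CPM at HH17-18. Its lowest and highest pools were the same as those of WNT6. These 2 pools also had the least and the most summed head mesenchyme transcript, at 1589 and 4227 CPM. GRHL3, another epithelial factor, was at 8.41 to 9.16 CPM at HH13-14, 8.25 to 16.1 at HH15-16 and 16.8 to 21.3 at HH17-18. Of the 9 surface ectoderm markers that passed the filter, edgeR called TP63 and GRHL3 higher over the interval. It called EPCAM, an epithelial adhesion molecule, lower, where 4.51% of all genes tested were called in either direction. DESeq2 called 5 of the 9, and 1805 of 18035 genes in all. EPCAM was at 93.3 to 110 CPM at HH13-14 and 68.4 to 79.6 CPM at HH17-18. CLDN1, a tight junction protein, was at 164 to 221 and 111 to 140 CPM at these stages, and GRHL2, a relative of GRHL3, at 7.21 to 10.2 and 5.10 to 5.72 CPM, so that these 3 markers lay lower in every pool of HH17-18. Over all genes tested, 15.4% lay lower and 16.0% higher in every pool of HH17-18 than in every pool of HH13-14. Replicate 2 of HH17-18, highest for WNT6, was the highest pool for 3 of the 9 markers (CDH1, GRHL3 and TP63). The summed level of the 10 of 11 listed genes found was 418 to 476 CPM at HH13-14 and 342 to 461 CPM at HH17-18, which overlap. The part of ectoderm or of head mesenchyme in the result for WNT6 was not tested.

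WNT5A (ENSGALG00010027875) is the best known ligand of the branch that does not run through β-catenin. Its level was 43.7, 43.7 and 46.6 CPM at HH13-14, 50.0, 52.7 and 62.5 CPM at HH15-16, and 54.4, 83.6 and 61.3 CPM at HH17-18. All later pools exceeded all pools of HH13-14, but HH15-16 and HH17-18 overlapped. Over all genes tested, 16.0% lay higher in every pool of HH17-18 than in every pool of HH13-14. The log2 change of WNT5A over the interval was 0.57 (SE 0.15), which missed the threshold with an edgeR adjusted p of 0.0572. The value passed in 6 of 19 alternatives, among them the DESeq2 test (adjusted p 0.0113) and the fit without replicate 1 of HH15-16 (0.0394). Over all genes the higher calls were 1042 with DESeq2 and 786 in that fit, against 425 in the main fit. Without replicate 2 of HH17-18 the log2 change of WNT5A was 0.37 (edgeR adjusted p 0.139).

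WNT11 (ENSGALG00010002356), a ligand known for cell movements in gastrulation, was at 4.99, 4.15 and 4.50 CPM at HH13-14, 3.95, 5.59 and 3.57 CPM at HH15-16, and 3.19, 8.41 and 6.53 CPM at HH17-18. The pools of HH17-18 included the lowest and the highest of all 9. Between these and the pools of HH13-14 the log2 change was 0.41 (SE 0.32, adjusted p 0.503 by edgeR). At this low level the lanes of a pool differed by up to 1.52-fold, the most of any member.

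**Figure D2:**
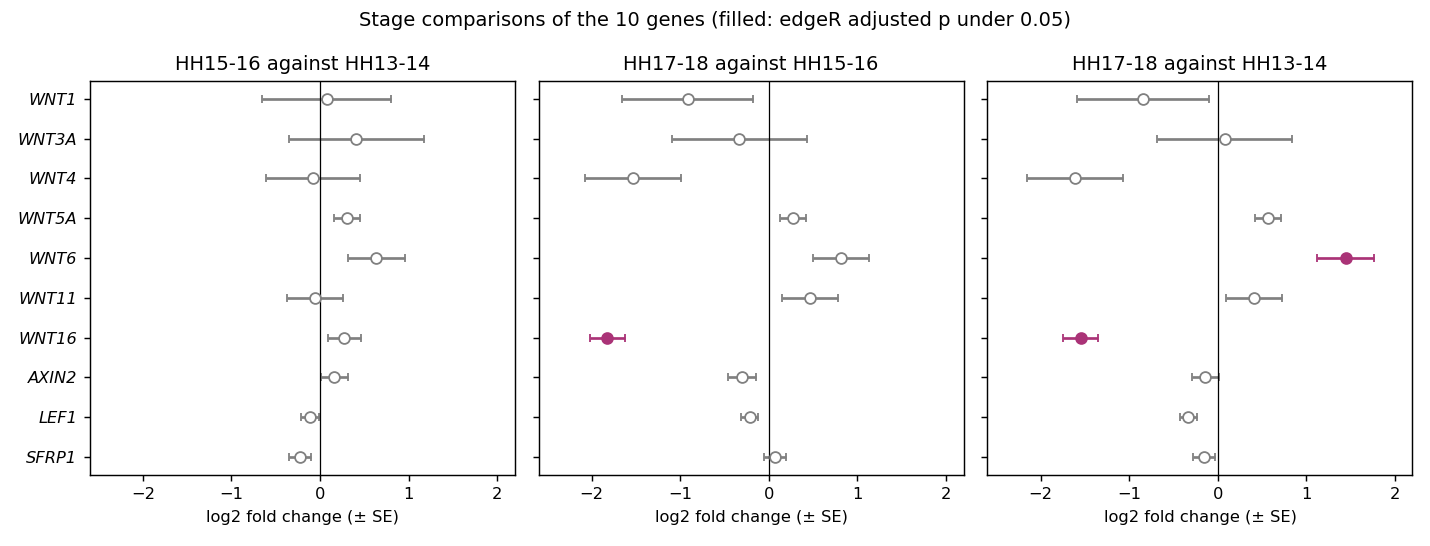
Log2 fold change of each of the 10 genes, with its SE as a horizontal bar, for the earlier step (left), the later step (middle) and the whole interval (right). Filled points passed an edgeR adjusted p of 0.05, namely WNT16 in the later step and WNT16 and WNT6 over the interval, and the bars of WNT1, WNT3A and WNT4 are the widest.

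WNT1, WNT3A and WNT4 varied widely between pools of the same stage. The SD within stages was 1.30 for WNT1, 1.27 for WNT3A and 0.87 for WNT4 on the log2 CPM scale, against a median of 0.23 over all genes tested. Of all genes tested, 99.1%, 99.1% and 95.7% had a smaller SD. In the other 7 members it ran from 0.12 (LEF1) to 0.50 (WNT6).

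WNT1 (ENSGALG00010022557) was at 33.4, 35.7 and 19.7 CPM at HH13-14, 37.9, 49.4 and 5.99 CPM at HH15-16, and 33.8, 4.53 and 11.1 CPM at HH17-18. High and low pools occurred at each of the later stages, and the stages overlapped. The pools of HH15-16 differed by 8.25-fold among themselves, while the lanes of a pool differed by at most 1.43-fold. The mean was 29.6 ± 8.62, 31.1 ± 22.5 and 16.4 ± 15.3 CPM (SD, n = 3), and the interval gave a log2 change of -0.84 (SE 0.74, adjusted p 0.558 by edgeR).

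WNT3A (ENSGALG00010026141) was at 9.72, 15.4 and 3.26 CPM at HH13-14, 15.5, 18.5 and 3.74 CPM at HH15-16, and 21.6, 3.46 and 4.92 CPM at HH17-18. Each stage had at least 1 pool under 5 CPM, and no pool lay between 4.92 and 9.72 CPM. Its log2 change over the interval was 0.08 (SE 0.76, adjusted p 0.964 by edgeR). The sign turned to -1.18 without replicate 1 of HH17-18 and to -0.33 without replicate 3 of HH13-14.

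WNT4 (ENSGALG00010016957), a ligand with roles in kidney and gonad, was at 113, 67.5 and 53.2 CPM at HH13-14, 121, 60.3 and 40.0 CPM at HH15-16, and 45.4, 9.16 and 21.8 CPM at HH17-18. All pools of HH17-18 lay below those of HH13-14, and 2 of them below all pools of HH15-16. The mean was 78.0 ± 31.3, 73.9 ± 42.3 and 25.5 ± 18.4 CPM (SD, n = 3). On the log2 scale the change was -1.61 over the interval (SE 0.55) and -1.53 in the later step (SE 0.55), neither of which passed (0.123 and 0.404 as adjusted p by edgeR). Without 1 pool the interval value ran from -2.33 to -1.21, with adjusted p-values of 0.0521 to 0.339.

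Some neural tube markers varied between the same pools and others did not. EN1, a midbrain and anterior hindbrain factor, was at 43.5, 26.3 and 26.7 CPM at HH13-14, 39.6, 27.9 and 4.22 CPM at HH15-16, and 26.1, 2.18 and 15.1 CPM at HH17-18. PAX7, a factor of the dorsal neural tube that neural crest cells also express, was at 20.3, 19.8 and 12.6 CPM, then 26.5, 31.4 and 7.47 CPM, then 28.6, 4.48 and 13.2 CPM. Replicate 2 of HH17-18, lowest for WNT1 and WNT4, was the lowest pool for 8 of the 12 neural tube markers that passed the filter (EN1, EN2, LMX1A, NKX2-2, OTX2, PAX6, PAX7 and SOX2). WNT3A was at 3.46 CPM there, and lowest in replicate 3 of HH13-14, at 3.26 CPM. That pool was the lowest for 0 of the 12 markers. Replicate 3 of HH15-16, the next lowest for WNT1, was among the 2 lowest pools for 5 of the 12 (EN1, EN2, HES5, OTX2 and PAX7). LMX1A, LMX1B and MSX1, factors of the roof plate and dorsal neural tube, stood at 15.5, 65.9 and 136 CPM there. In replicate 1 of HH15-16, where WNT1 was at 37.9 CPM, they were lower, at 9.37, 57.6 and 94.7 CPM. In replicate 2 of HH15-16, where WNT1 was at 49.4 CPM, LMX1A and MSX1 were higher, at 17.5 and 167 CPM, and LMX1B was at 65.2 CPM. Summed head mesenchyme transcript also differed between these pools of HH15-16, at 3319 CPM in replicate 3, 1589 CPM in replicate 1 and 2808 CPM in replicate 2. The part of head mesenchyme in the levels of these factors was not tested. LMX1B ran from 57.6 to 74.3 CPM over all pools. EN2 ran from 12.1 CPM in replicate 2 of HH17-18 to 106 CPM in replicate 1 of HH15-16, the pools in which WNT4 was also lowest and highest. Of the 12 markers, 0 passed the edgeR test over the interval, 3 had an unadjusted edgeR p under 0.05 and DESeq2 called 1. Over all genes 3829 of 17724 had such a p and DESeq2 called 1805 of 18035. The median log2 fold change of the 12 markers was -0.20. The part of neural tube tissue in the levels of these ligands was not tested.

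**Figure D3:**
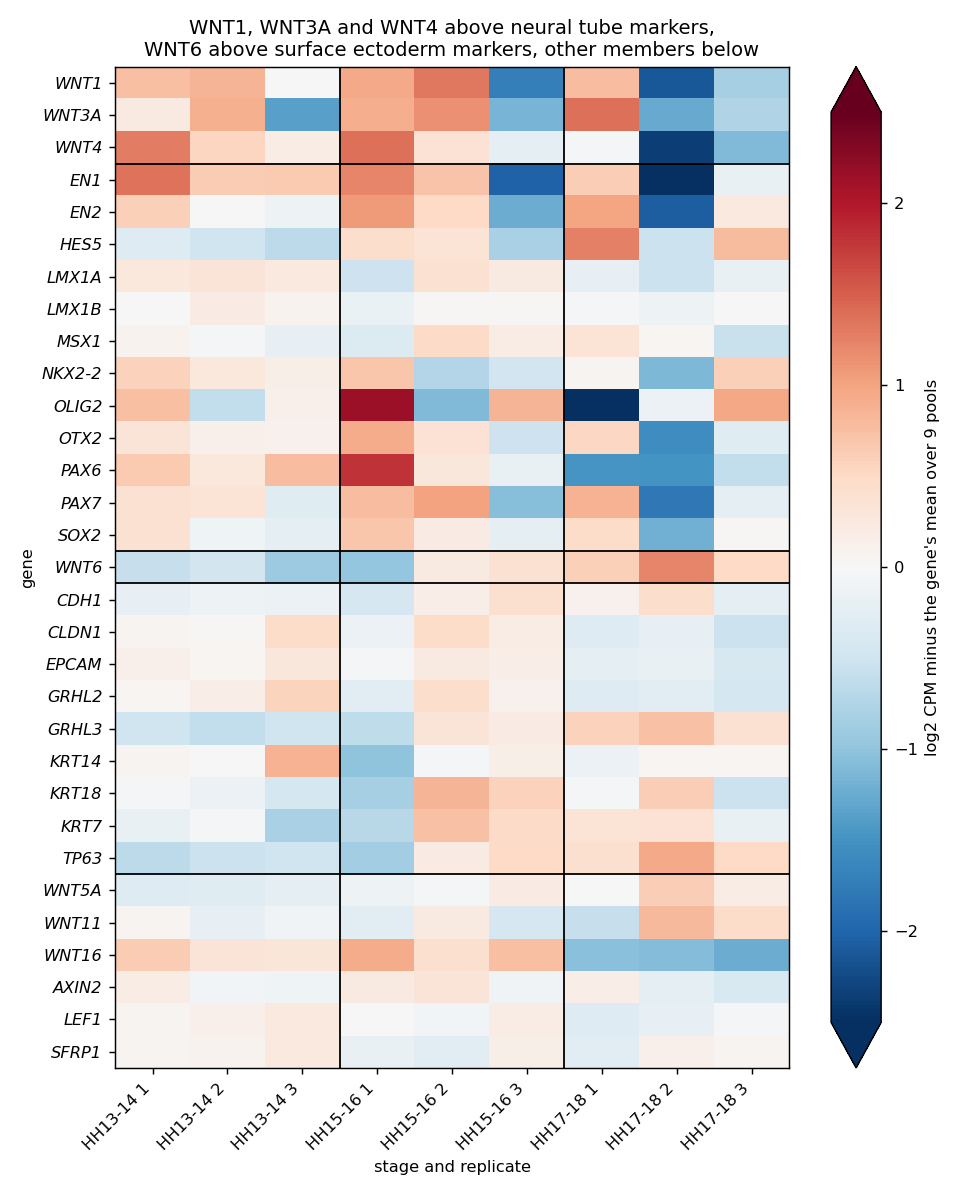
Level of the 10 genes, of the 12 neural tube markers and of the 9 surface ectoderm markers that passed the filter in each of 9 pools, as log2 CPM minus the mean of the gene over the pools (red above, blue below, with the colour scale capped at its ends). In replicate 2 of HH17-18, WNT1, WNT4 and 8 of 12 neural tube markers are at their lowest, and WNT6 and 3 of 9 surface ectoderm markers at their highest.

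AXIN2, LEF1 and SFRP1 ranged over 1.64-fold, 1.48-fold and 1.44-fold among the 9 pools, where the median gene ranged over 1.71-fold. AXIN2 (ENSGALG00010029221), a scaffold of the complex that degrades β-catenin and a feedback target of the pathway, was at 53.1, 44.5 and 43.7 CPM at HH13-14, 54.9, 59.0 and 44.1 CPM at HH15-16, and 52.4, 39.7 and 36.1 CPM at HH17-18. The stages overlapped. Over the same pools WNT1 ranged over 10.9-fold and WNT4 over 13.3-fold. For AXIN2 the log2 difference was 0.16 in the earlier step (SE 0.15), -0.30 in the later step (SE 0.16) and -0.14 over the interval (SE 0.16). The edgeR adjusted p-values were 0.758, 0.592 and 0.654.

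LEF1 (ENSGALG00010005587), a DNA-binding partner of β-catenin that is also a target, was at 79.3, 81.8 and 89.4 CPM at HH13-14, 75.5, 71.3 and 85.1 CPM at HH15-16, and 60.5, 65.7 and 73.2 CPM at HH17-18. The first and last stages did not overlap, and HH15-16 overlapped each of them. Its log2 difference over the interval was -0.33 (SE 0.10), which missed the threshold with an edgeR adjusted p of 0.0858. It passed with DESeq2 (-0.34, adjusted p 0.0376), which called 763 genes lower over the interval, against 375 by edgeR.

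SFRP1 (ENSGALG00010017467), which binds WNT proteins outside the cell, was at 296, 301 and 336 CPM at HH13-14, 250, 234 and 313 CPM at HH15-16, and 234, 307 and 296 CPM at HH17-18. The stages overlapped, and the log2 difference was -0.23 in the earlier step, 0.07 in the later step and -0.16 over the interval (SE 0.13 each). The edgeR adjusted p-values were 0.566, 0.905 and 0.513. The lowest SFRP1 was in replicate 2 of HH15-16, the pool with the most WNT1 and AXIN2, by a small margin from replicate 1 of HH17-18.

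Relations between ligands and these 3 genes were computed over the 9 pools for 5 ligands, 15 relations in all. WNT3A and WNT16 were left out because their pools fell into separate clusters. No numerical rule set this choice, and WNT4, which was kept, had no pool between 9.16 and 21.8 CPM. The adjusted p-values cover the 15 relations only. Pools were permuted across stages, so the p-values do not separate a relation from a shared change with stage. For WNT1 and AXIN2, Pearson's r of log2 CPM was 0.77 (exact permutation p 0.0165, adjusted over the 15 relations 0.162) and Spearman's rho 0.85 (exact permutation p 0.00607, adjusted 0.0911). Without replicate 2 of HH17-18 and replicate 3 of HH15-16, the pools farthest from the median of WNT1, r was 0.91. For WNT1 and SFRP1, r was -0.61 (exact permutation p 0.0784, adjusted 0.294) and rho -0.70 (exact permutation p 0.0433, adjusted 0.216), with r of -0.59 without the same pools. Taken as deviations from stage means, r was 0.80 for WNT1 with AXIN2 and -0.97 for WNT1 with SFRP1, given as a description. For WNT4 and AXIN2, r was 0.73 (exact permutation p 0.0217, adjusted 0.162) and rho 0.78 (exact permutation p 0.0172, adjusted 0.129), while r was 0.47 without replicates 2 and 3 of HH17-18, the pools farthest from the median of WNT4, and 0.70 as deviations from stage means. For LEF1, r with WNT1 was -0.02 (exact permutation p 0.957, adjusted 0.957) and rho -0.12 (exact permutation p 0.776, adjusted 0.912), with r of -0.20 without the 2 farthest pools and -0.74 as deviations from stage means. For LEF1 and WNT6, r was -0.67 (exact permutation p 0.0528, adjusted 0.264) and rho -0.65 (exact permutation p 0.0666, adjusted 0.25), with r of -0.65 without the 2 farthest pools and 0.0012 as deviations. In the 10 other relations r ran from -0.50 (WNT5A with AXIN2) to 0.40 (WNT4 with LEF1), with exact permutation p-values of 0.167 to 0.815. As deviations from stage means, r of SFRP1 was also -0.78 with WNT4 and 0.79 with WNT5A. With WNT6 and WNT11 it was 0.30 and 0.34. No relation passed an adjusted p of 0.05 by either measure, and the pools also differed in neural tube transcript, as given above.

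**Figure D4:**
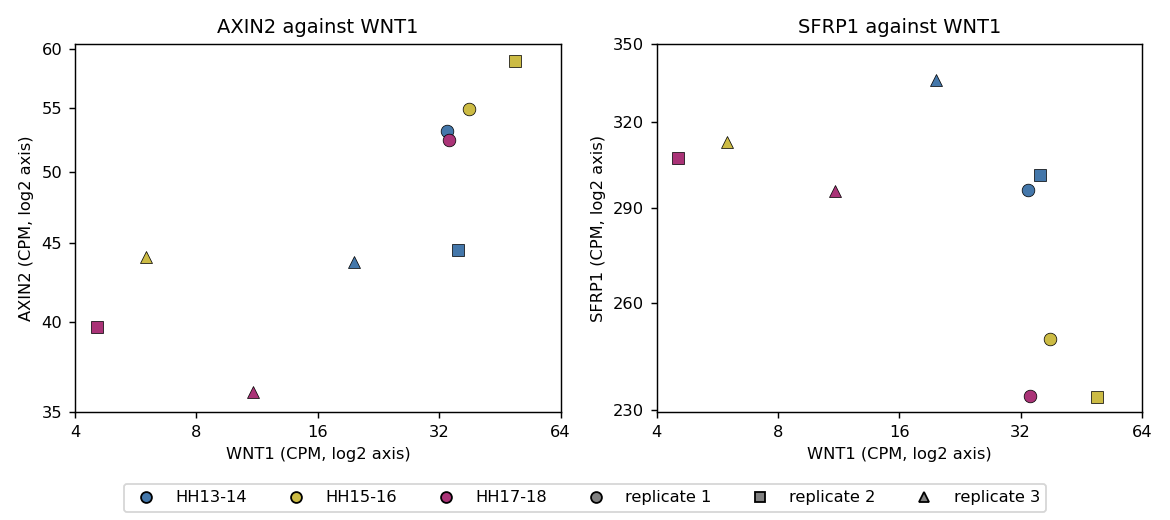
AXIN2 (left) and SFRP1 (right) against WNT1 in the 9 pools, in CPM on log2 axes, with colours for stages and symbols for replicate numbers. AXIN2 was highest, at 59.0 CPM, in the pool with the most WNT1, at 49.4 CPM, and SFRP1 was lowest there.

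The genes whose level over the 9 pools was most like that of each member were found by Pearson's r of log2 CPM among 9753 genes with a symbol and a mean of at least 5 CPM. The values are a description, since the closest of many genes were picked for their r over 9 pools that share stage and tissue makeup. For WNT1 the closest genes were MAB21L2, ITPKA and LRFN5 (r = 0.97 each), and for WNT3A they included SLC45A3 (0.95) and MSN (0.94). AZIN1 (0.99), TKTL1 (0.98) and LRATD2 (0.97) were closest to WNT4. For WNT6 they were ANTXR1, BAMBI and DAB2 (0.99 each), and for WNT16 WDR53 (0.98), TSKU (0.96) and RHOU (0.95). For WNT5A they were SESN3 (0.96), ADGRA2 (0.96) and ITGA1 (0.95), and for WNT11 ANO8 (0.91), MROH1 (0.90) and LRRC71 (0.89). PEX16 (0.96), TCTN2 (0.95) and GPI (0.95) were closest to AXIN2, GALNT18 (0.98), PHTF1 (0.98) and EMB (0.95) to LEF1, and TSC22D1, PMP22 (0.94 each) and SCAP (0.93) to SFRP1. Taken as deviations from stage means, r stayed at 0.97 for MAB21L2 with WNT1, 0.96 for SLC45A3 with WNT3A and 0.97 for ANTXR1 with WNT6, but was 0.42 for RHOU with WNT16.

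Other genes of the pathway were followed in 9 lists with 101 different genes, some of them in 2 lists, of which 91 were found by symbol and 87 passed the filter. These lists too were chosen with earlier results of these data known. Over the interval 2 of the 87 rose and 5 fell, where 4.51% of all genes tested were called in either direction, and 0 were called by edgeR in either single step. In the earlier step 4 had an unadjusted edgeR p under 0.05 and DESeq2 called 2, where these counts over all genes were 1796 of 17724 and 104. In the later step the counts were 13 and 5, and over all genes 1651 of 17724 and 349. The median log2 fold change of the 87 over the interval was -0.07, against 0.02 over all genes tested.

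Among the 11 other ligands that passed the filter, WNT10A rose and WNT2B (ENSGALG00010027417), known from the chick eye margin, fell. WNT2B was at 114, 118 and 110 CPM at HH13-14, 66.4, 97.1 and 107 CPM at HH15-16, and 47.9, 68.7 and 45.8 CPM at HH17-18. All pools of HH13-14 lay above all later pools. Over all genes tested, 15.4% lay lower in every pool of HH17-18 than in every pool of HH13-14. In the RefSeq table a long noncoding RNA overlaps the gene. The log2 change of WNT2B over the interval was -1.08 (SE 0.19, adjusted p 0.0155 by edgeR). Its call was lost each time a pool of HH13-14 was left out and without replicate 3 of HH17-18, at adjusted p-values up to 0.0669. Over all genes the lower calls, 375 in the main fit, also fell when a pool was left out of these stages. Without replicates 1, 2 and 3 of HH13-14 in turn they were 71, 75 and 69. Without those of HH17-18 they were 291, 157 and 105.

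Among 16 receptors and co-receptors, FZD7 (ENSGALG00010026264), a Frizzled receptor, fell and 15 did not pass. FZD7 was at 206, 219 and 210 CPM at HH13-14, 170, 136 and 157 CPM at HH15-16, and 127, 123 and 134 CPM at HH17-18. The 3 stages were ordered without overlap between pools, and the share of all genes so ordered was not computed. Between HH13-14 and HH17-18 alone, 15.4% of all genes tested lay lower in every later pool. Over the interval it fell by 0.73 on the log2 scale (SE 0.08, adjusted p 0.00402 by edgeR), and this call held in all 19 alternatives. The mean over 9 pools was 575 CPM for PTK7, a co-receptor of planar polarity, 246 CPM for FZD1 and 166 CPM for FZD5.

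Among 13 inhibitors DKK2 (ENSGALG00010005985), a secreted ligand of LRP co-receptors, rose from 1.48 ± 0.541 to 3.89 ± 0.92 CPM (SD, n = 3). This was a log2 change of 1.39 (SE 0.33, adjusted p 0.0405 by edgeR). The call was lost in 10 of 19 alternatives, among them each fit that left out a pool of HH13-14 or HH17-18. Higher calls over all genes also fell in each of those fits, as given for WNT6. FRZB and SFRP2, secreted inhibitors related to SFRP1, were not called and had means of 103 and 101 CPM over 9 pools. By edgeR 0 of 9 R-spondins and their receptors passed, and likewise WLS, which carries WNT proteins to the cell surface, 0 of 8 genes of the β-catenin relay and 0 of 11 TCF factors and nuclear partners. In these lists 2, 0, 1 and 2 genes had an unadjusted edgeR p under 0.05, and DESeq2 called 0. Over all genes 3829 of 17724 had such a p and DESeq2 called 1805 of 18035. In these lists the means over 9 pools were 570 CPM for WLS, 1104 CPM for CTNNB1, which encodes β-catenin, and 85.9 CPM for TCF7L1.

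Among 13 further response genes MYC and AMOTL2 fell, where 2.12% of all genes tested were called lower. Of the 13, 6 had an unadjusted edgeR p under 0.05 over the interval and DESeq2 called 4. Over all genes 3829 of 17724 had such a p and DESeq2 called 1805 of 18035. The median log2 fold change of the 13 was -0.45, against 0.02 over all genes tested. MYC (ENSGALG00010007986), a growth regulator with many inputs besides WNT, went from 53.5 ± 8.70 at HH13-14 to 50.6 ± 5.37 and 28.5 ± 5.71 CPM (SD, n = 3), and its interval log2 fold change was -0.91 (SE 0.16, edgeR adjusted p 0.018). The call was lost without replicate 1 or 3 of HH13-14 or replicate 3 of HH17-18, at adjusted p-values up to 0.0863. AMOTL2 (ENSGALG00010024678), a junction protein, went from 86.1 ± 6.80 to 68.8 ± 2.01 and 57.2 ± 7.23 CPM, and fell by 0.59 on the log2 scale over the interval (SE 0.10, adjusted p 0.0155 by edgeR). Its call was lost without replicate 1 or 2 of HH13-14, at adjusted p-values up to 0.0756. Among 11 planar polarity genes, PRICKLE1 (ENSGALG00010001843) fell by 0.38 on the log2 scale (SE 0.09, edgeR adjusted p 0.0393), from 47.9 ± 1.95 to 36.9 ± 3.07 CPM. It lost its call in 10 of 19 alternatives, among them each fit that left out a pool of HH13-14 or HH17-18. For MYC, AMOTL2 and PRICKLE1 alike, lower calls over all genes also fell in such fits, as given for WNT2B.

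**Figure D5:**
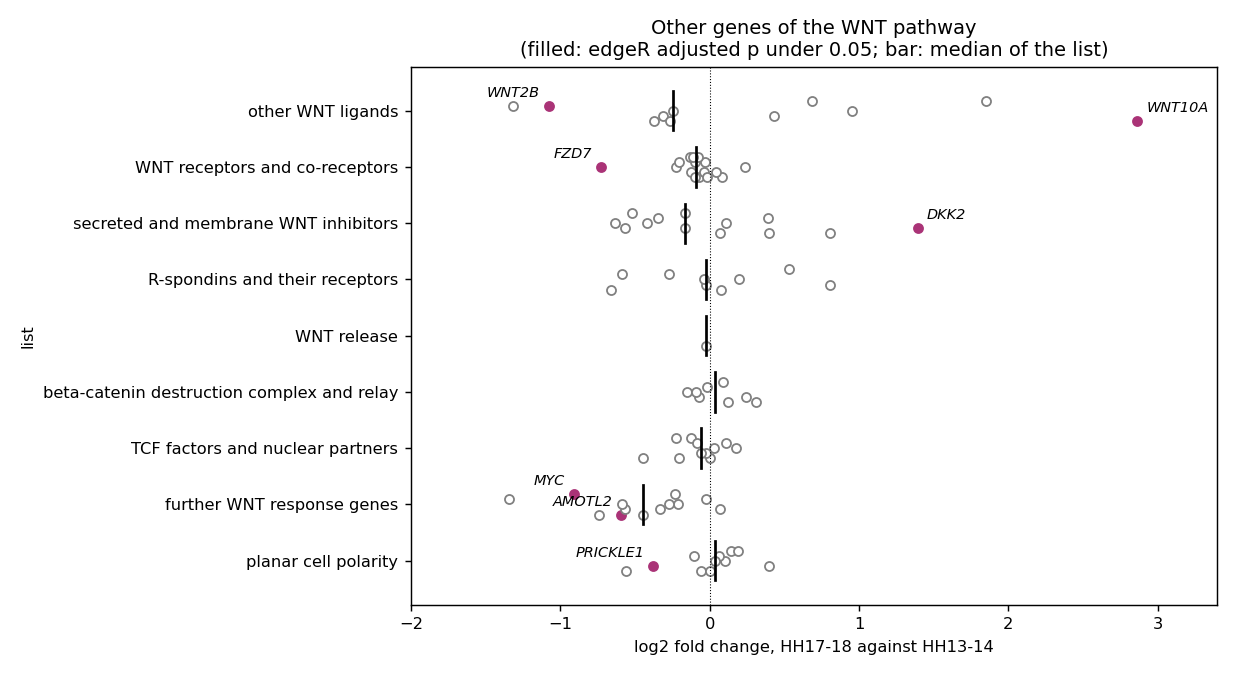
Log2 fold change from HH13-14 to HH17-18 of each other pathway gene that passed the filter, by list, with a bar at the median of the list and filled points for an edgeR adjusted p under 0.05. WNT10A, at 2.86, lies farthest to the right, and most genes lie near 0.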

How the data were processed

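Trigeminal ganglia of chick embryos at 3 stages gave 9 pools and 18 libraries (technical replicates on lanes 7 and 8). The deposited values are raw counts per gene, which the authors made with Trim Galore, HISAT2 and featureCounts on GRCg7b, per the submitters' processing notes; versions, strand setting and handling of reads with several matches are not given in the sources used here. Of 30108 genes, 15860 had no symbol. Library totals ran from 26505315 to 34424153.

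Technical replicates were summed to pools, taken as replicates as the labels call them biological; nothing says which embryos each pool held, so p-values measure the spread between pools. Genes were kept by filterByExpr, scaled by TMM and tested with edgeR 4.0.16 in R 4.3.3 (quasi-likelihood, all 3 stages in 1 fit, two-sided, Benjamini-Hochberg adjustment over 17724 genes, threshold 0.05). Log2 CPM used a prior count of 2. The test was run on counts simulated independently for each gene, which does not cover tissue makeup shared between genes of a pool. No result is drawn from that run. Alternatives were DESeq2 1.42.0, other scaling, filters, thresholds and fits, single lanes, a replicate block and leaving out each pool. The members and lists were chosen with earlier results of these data known. All members are named, with pathway genes past the threshold and some of the highest CPM per list, and the 3 genes most like each member, of which 1 is not reported here. Sequences were not used here.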

Additional observations from a re-analysis of the deposited data

How the results depend on the processing

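Of 720 log2 fold changes compared under the alternatives, 643 kept direction and side of the threshold, 44 lost a call, 16 gained one and 17 changed sign. Most of the 720 came from comparisons not called in the main fit, which could not lose a call. The threshold of 0.01 kept the fold changes of the main fit. The 1 member with a stage effect became 3 with DESeq2, 2 with no filter, 5 with 18 libraries as separate samples, 2 with the replicate block and 0 to 2 without 1 pool. Over the interval the 1 member higher became 2 with DESeq2, no filter, 18 libraries or a fit of the 2 stages alone, 0 on lane 7 or at a threshold of 0.01, and 0 to 2 without 1 pool. The 1 member lower became 2 with DESeq2 and 3 with 18 libraries or with the replicate block, and stayed 1 without any pool. In the later step the 0 members higher became 1 with 18 libraries; the 1 lower became 3 with 18 libraries, 0 on lane 7, in the 2-stage fit or at 0.01, and 0 to 1 without 1 pool. The 0 members whose steps differed became 1 with DESeq2 or 18 libraries. The 2 pathway genes higher became 1 with at least 10 counts in every pool, on lane 8, with the block or at 0.01, 8 with 18 libraries and 1 to 2 without 1 pool. The 5 lower became 16 with 18 libraries, 1 at 0.01 and 1 to 7 without 1 pool. Treating lanes as samples counts technical replicates as pools. Causes of the other moves were not tested.

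Signs changed for WNT1 in the earlier step (-0.17 with the block, -0.43 to 0.56 without 1 pool), WNT3A in the later step (-1.60 to 0.074 without 1 pool) and over the interval (-1.18 to 0.62), WNT4 in the earlier step (-0.64 to 0.29), WNT11 in the earlier step (0.25 on lane 7, -0.28 to 0.069 without 1 pool) and SFRP1 in the later step (-0.012 to 0.21). Over all genes the 425 higher and 375 lower calls of the interval became 1042 and 763 with DESeq2, 2400 and 2151 with 18 libraries, 765 and 625 in the 2-stage fit, 27 and 59 at 0.01, and 27 to 786 higher and 69 to 722 lower without 1 pool. The most calls came without replicate 1 of HH15-16, at 786 higher and 722 lower, and the fewest in fits without a pool of HH13-14. Same-numbered pools of different stages correlated at a mean r of 0.07 (-0.06 to 0.30), and pools of different numbers at -0.03 (-0.40 to 0.32). Of the 9 pools, 5 correlated best with their own number. The labels name nothing shared by pools of a number, and the numbers were not taken as pairing. With the replicate block LEF1 passed over the interval (edgeR adjusted p 0.043), and so did WNT4 (log2 -1.75, edgeR adjusted p 0.0191). For WNT1 the SE of the interval (0.74) was close to the fitted log2 difference (-0.84), and WNT10A rests on 8 to 15 counts per pool at HH13-14.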
